A study of Mus musculus with 3 samples.

Results

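Cytochrome c oxidase, complex IV of the mitochondrial respiratory chain, holds several subunits that mammals encode in pairs of genes, a common isoform made in most tissues and an isoform restricted to some of them. The 10 genes of 5 such pairs were followed here: Cox4i1 and Cox4i2, Cox6a1 and Cox6a2, Cox6b1 and Cox6b2, Cox7a2 and Cox7a1, and Cox8a and Cox8b. They were chosen by gene symbol in the deposited transcript annotation, and each of the 10 matched a single locus out of the 48626 loci of the expression table, 20117 of which were mRNA loci. No member locus was joined with another gene. The symbols and the lists of other genes used below were picked with earlier results of these data known.

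The data came from the heart ventricle of C57BL/6 mice (C57BL/6 J in the study's methods) taken from embryos at E10.5 and at E13.5 (days of embryonic development) and from adults of 8 weeks, with no other genotype or treatment. Total RNA was sequenced as 1 paired-end library per stage, so no difference below has a replicate check, no p-value could be given, and stage cannot be told apart from the library. Levels are FPKM, fragments scaled to the length of the exons and to the mapped total of the library, a per-length unit in which different genes can be compared. In these bulk samples, fewer cells of a type and less RNA per cell cannot be told apart.

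Complex IV passes electrons from cytochrome c to oxygen and pumps protons across the inner mitochondrial membrane. Its catalytic core is encoded by the mitochondrial genome, and the nuclear-encoded subunits around it act in assembly, stability and regulation, including the response to ATP and ADP. Heart and skeletal muscle are known for the isoforms Cox6a2, Cox7a1 and Cox8b, lung and oxygen-sensing cells for Cox4i2, and testis for Cox6b2.

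The pairs differ in sequence, and the coding sequences of the Cox7a and Cox8 pairs are shown because the reads of a pair can be separated only where its members differ. Each was read from the GRCm38 genome at the coding exons of the GENCODE annotation, 5′ to 3′, with the longest run of bases that both members of a pair share in capitals. Cox7a1 lay on the plus strand (coding exons within chr7:30184231-30185967), Cox7a2 on the minus strand (chr9:79755547-79759657), and Cox8a and Cox8b on the minus strand (chr19:7215389-7217512 and chr7:140898988-140900342).
Cox7a1: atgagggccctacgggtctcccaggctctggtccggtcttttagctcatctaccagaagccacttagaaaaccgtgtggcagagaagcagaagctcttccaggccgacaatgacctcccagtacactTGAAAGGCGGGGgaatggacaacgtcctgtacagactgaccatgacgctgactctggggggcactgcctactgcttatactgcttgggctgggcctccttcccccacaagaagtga
Cox7a2: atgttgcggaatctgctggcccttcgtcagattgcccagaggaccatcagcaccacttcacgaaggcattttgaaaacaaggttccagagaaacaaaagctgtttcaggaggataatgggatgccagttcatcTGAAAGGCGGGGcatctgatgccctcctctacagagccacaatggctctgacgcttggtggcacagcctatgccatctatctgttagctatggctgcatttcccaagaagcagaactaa
Cox8a: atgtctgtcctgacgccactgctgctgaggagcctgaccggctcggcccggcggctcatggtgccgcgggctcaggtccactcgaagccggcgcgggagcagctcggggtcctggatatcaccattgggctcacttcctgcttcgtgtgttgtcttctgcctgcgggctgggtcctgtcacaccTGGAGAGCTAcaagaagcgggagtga
Cox8b: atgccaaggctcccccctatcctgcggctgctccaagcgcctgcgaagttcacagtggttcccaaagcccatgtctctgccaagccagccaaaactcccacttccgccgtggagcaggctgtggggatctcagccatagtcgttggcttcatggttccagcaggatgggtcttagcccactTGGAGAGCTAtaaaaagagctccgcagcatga

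Cox7a1 (80 residues) and Cox7a2 (83 residues) shared 59.9% of the aligned coding columns, with a longest common run of 12 nt. Cox8a (69 residues) and Cox8b (70 residues) shared 53.4%, with a longest common run of 10 nt. In the remaining pairs the identity was 62.9% for Cox4i, 56.3% for Cox6a and 61.9% for Cox6b, and the longest common run of the coding sequence, which was also that of the whole transcript, was 14, 12 and 14 nt. No pair thus held a stretch long enough for a whole read to fall on both members alike.

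In 3 of the 5 pairs the more abundant isoform was a different gene in the adult than in the embryo. Cox6a2 had a share of 17.3% in the summed FPKM of its pair at E10.5, of 27.4% at E13.5 and, in the adult, of 92.2%. Cox7a1 made up 33.6%, 29.9% and 86.8% of its pair, and Cox8b made up 10.2%, 6.54% and 90.6%. Taken from FPKM times locus length, an estimate of fragments, the share of Cox7a1 was 19.7%, 17.1% and 76.2%. The other two pairs stayed with the common isoform at every stage, Cox4i2 at 0.394%, 0.788% and 0.325% and Cox6b2 at 0.367%, 0.368% and 0.109%. A share is taken within a library, so it does not depend on how the libraries were scaled to each other.

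**Figure D1:**
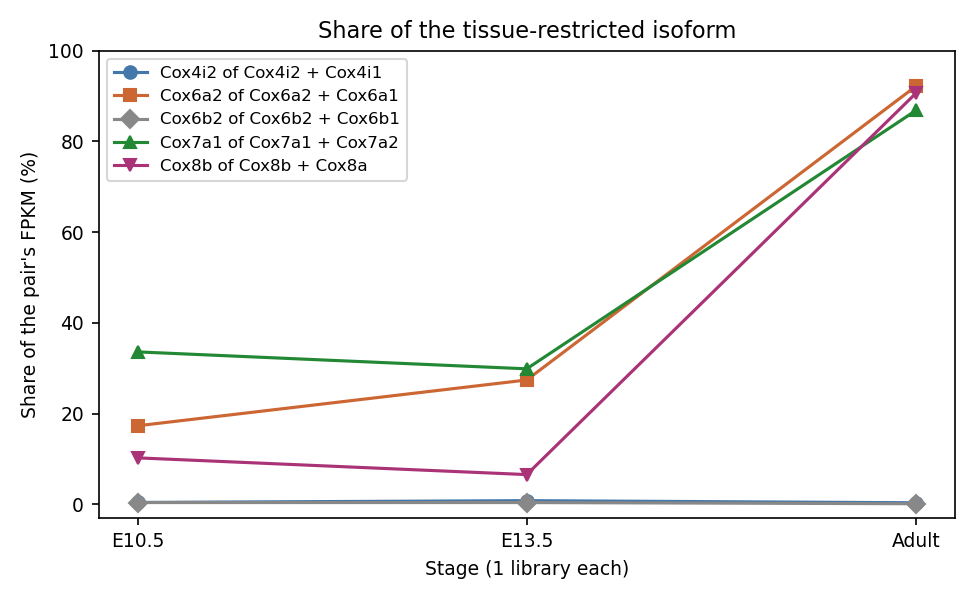
Share of the tissue-restricted isoform in the summed FPKM of its pair (percent, vertical axis) by stage, 1 library each, with a line for each pair. Cox6a2, Cox7a1 and Cox8b lay between 6.54% and 33.6% in the embryonic libraries and between 86.8% and 92.2% in the adult, whereas Cox4i2 and Cox6b2 stayed below 1% in all 3.

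Cox6a1 and Cox6a2 encode the common and the heart and muscle form of subunit 6a, which is known for binding adenine nucleotides. Cox6a1 (3 exons, chr5:115345654-115348955, minus strand, mm10) was at 363 and 530 FPKM in the E10.5 and E13.5 libraries and at 69.2 FPKM in the adult. Cox6a2 (3 exons, chr7:128205435-128208299, minus strand) was at 76.0, 199.8 and 814 FPKM. Cox6a1 was thus highest in the E13.5 library and lowest in the adult, and Cox6a2 was higher at each later stage. The level of Cox6a2 in the adult was 10.7-fold that at E10.5, and that of Cox6a1 was 5.25-fold lower. The log2 ratio of Cox6a2 to Cox6a1 was -2.26 at E10.5, went to -1.41 by E13.5 and to 3.56 by adulthood, and Cox6a was the only of the 3 switching pairs whose ratio was already higher at E13.5 than at E10.5. Adult ventricle had a 56.3-fold higher ratio than the E10.5 ventricle.

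Cox7a2 and Cox7a1 encode the common and the heart and muscle form of subunit 7a, a small membrane-spanning subunit at the edge of the complex. Cox7a2 (4 exons, chr9:79755241-79759853, minus strand) was at 329, 483 and 384 FPKM. Cox7a1 (4 exons, chr7:30184171-30186037, plus strand) was at 166, 206 and 2531 FPKM, and with the adult value it ranked 9 among the 20117 mRNA loci, after 242 at E10.5. The 3 levels of Cox7a2 lay close together while Cox7a1 stood apart in the adult alone. Against E10.5, adult Cox7a1 was 15.2-fold higher and adult Cox7a2 1.17-fold higher. The log2 ratio of Cox7a1 to Cox7a2 was -0.98, -1.23 and 2.72, and the adult ratio was 13.0-fold that at E10.5, the smallest change of ratio among the 3 switching pairs.

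Cox8a and Cox8b encode the common and the heart and muscle form of subunit 8, the smallest nuclear-encoded subunit of these pairs. Cox8a (2 exons, chr19:7215158-7217616, minus strand) was at 739, 1383 and 195 FPKM. Cox8b (2 exons, chr7:140898942-140900446, minus strand) was at 84.1, 96.7 and 1883 FPKM. Cox8a was highest at E13.5 and lowest in the adult, and Cox8b was low in both embryonic libraries and high in the adult. Against E10.5, adult Cox8b was 22.4-fold higher and adult Cox8a 3.79-fold lower. The log2 ratio of Cox8b to Cox8a was -3.13, -3.84 and 3.27, and from E13.5 to the adult the ratio was 138.0-fold higher, the largest change of ratio in any pair and step.

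Cox4i1 and Cox4i2 encode the common and the lung form of subunit 4, a large nuclear-encoded subunit tied to the regulation of the complex by ATP. Cox4i1 (5 exons, chr8:120668290-120674209, plus strand) was at 586, 1014 and 1394 FPKM, and Cox4i2 (chr2:152754173-152765037, plus strand) was at 2.32, 8.06 and 4.54 FPKM. Cox4i1 was higher at each later stage, and Cox4i2 was highest at E13.5 and never came near its partner, which was 126-fold to 307-fold higher. Cox4i2 was 3.48-fold higher at E13.5 than at E10.5, on an estimated 23 and 151 fragments in these libraries, with 45 in the adult one. In the GENCODE annotation Cox4i1 lies inside the protein-coding model Gm20388 on the same strand and overlaps Emc8 on the other strand by 284 bp, so fragments shared with these models could not be separated here.

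Cox6b1 and Cox6b2 encode the common and the testis form of subunit 6b, which faces the intermembrane space and lies near the cytochrome c binding side. Cox6b1 (4 exons, chr7:30616974-30626151, minus strand) was at 1029, 1752 and 1968 FPKM, and Cox6b2 (chr7:4751794-4753094, minus strand) was at 3.80, 6.47 and 2.15 FPKM. Cox6b1 held the highest FPKM of the 10 members in both embryonic libraries and was second to Cox7a1 in the adult. Cox6b2 rested on an estimated 28, 92 and 16 fragments, and its share of the pair was 0.367% and 0.368% in the embryonic libraries and 0.109% in the adult. Its ratio to Cox6b1 in the adult was 0.296 times that at E10.5.

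**Figure D2:**
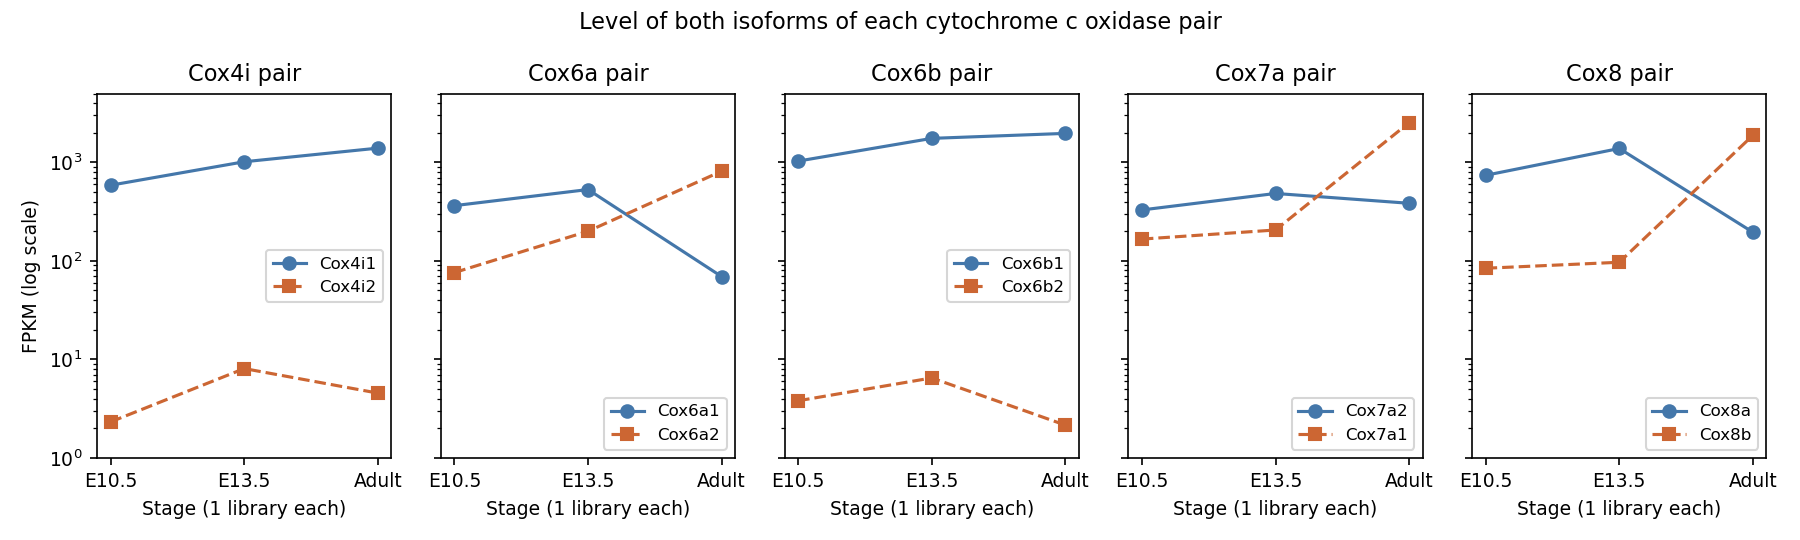
FPKM (log scale, vertical axis) of both isoforms of each pair by stage, 1 library each, with the common isoform as circles on a solid line and the restricted isoform as squares on a broken line. The lines cross between E13.5 and the adult in the Cox6a, Cox7a and Cox8 pairs, and stay far apart in the Cox4i and Cox6b pairs.

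The order of the members by FPKM differed between the first and the last stage. At E10.5 the order was Cox6b1, Cox8a, Cox4i1, Cox6a1, Cox7a2, Cox7a1, Cox8b, Cox6a2, Cox6b2 and Cox4i2. In the adult it was Cox7a1, Cox6b1, Cox8b, Cox4i1, Cox6a2, Cox7a2, Cox8a, Cox6a1, Cox4i2 and Cox6b2. With 1 library per stage no spread is known, and neighbours such as Cox8b (84.1 FPKM) and Cox6a2 (76.0 FPKM) at E10.5 or Cox6b1 (1968 FPKM) and Cox8b (1883 FPKM) in the adult cannot be ordered firmly. Among all mRNA loci of the adult library, Cox8b ranked 16 and Cox6a2 ranked 39, against 642 and 721 at E10.5, while Cox8a went from rank 35 to 211 and Cox6a1 from 87 to 635.

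All 5 pairs had a higher sum of both isoforms in the adult library than in the E10.5 library. It was 588, 1022 and 1399 FPKM for Cox4i, 439, 729 and 883 FPKM for Cox6a, 1033, 1758 and 1970.2 FPKM for Cox6b, and 823, 1480 and 2078 FPKM for Cox8 at the 3 stages. For Cox7a it was 495, 689 and 2915 FPKM. The Cox7a sum in the adult was 5.89-fold that at E10.5, against 1.91-fold to 2.53-fold in the other pairs. In the Cox6a and Cox8 pairs a higher restricted isoform stood beside a lower common isoform, whereas in the Cox7a pair the higher Cox7a1 stood beside a Cox7a2 of similar level.

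Changes between stages were taken on the scale of log2(FPKM + 1), on which low genes change less than in FPKM, among them Cox4i2 and Cox6b2. They were read beside the 12569 mRNA loci whose highest library reached 1 FPKM, a filter that all 10 members passed. The median of these loci was itself shifted by 0.17 from E10.5 to E13.5, by -0.50 from E13.5 to the adult and by -0.40 from E10.5 to the adult. From E10.5 to the adult 3 members were higher by 2 or more, a size that 5.59% of the loci reached, and 1 was lower by 2 or more, which 8.1% of the loci reached. With a limit of 1, 4 members were higher and 2 lower, beside 14.8% and 27.3% of the loci. The 3 that were higher by 2 or more were Cox8b with 4.47, Cox7a1 with 3.92 and Cox6a2 with 3.40. Only 43, 82 and 164 of the 12569 loci had a larger positive difference than these.

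On the other side, Cox6a1 differed by -2.38 and Cox8a by -1.92 between E10.5 and the adult. A larger negative difference was found in 702 and 1128 loci. Between these 2 stages the lower level of both common isoforms was thus far less rare than the higher level of their partners. This did not hold for the Cox6a pair from E13.5 to the adult, as given below. Of the loci, 703 were higher and 1018 lower by 2 or more as deposited, against 989 and 766 with median-of-ratios scaling. With that scaling the differences were -1.97 for Cox6a1 and -1.50 for Cox8a, and Cox6a1 no longer reached the limit of 2. The other members lay between -0.61 for Cox6b2 and 1.25 for Cox4i1. Over all 10 members the median difference was 0.84.

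**Figure D3:**
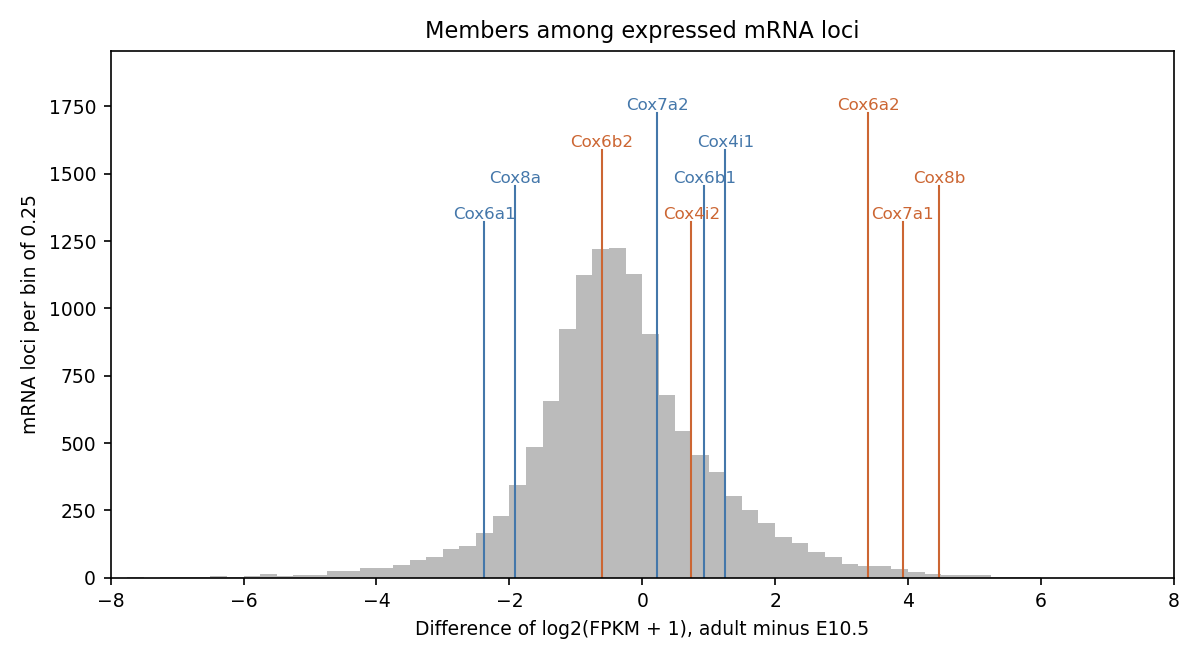
Number of expressed mRNA loci (vertical axis, bins of 0.25) by their difference of log2(FPKM + 1) between the adult and the E10.5 library (horizontal axis), with a vertical line at each member, blue for the common and orange for the restricted isoforms. Cox6a2, Cox7a1 and Cox8b stand at 3.40, 3.92 and 4.47, in the right tail of the 12569 loci, and Cox6a1 and Cox8a at -2.38 and -1.92.

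Most of the difference of the switching pairs lay between E13.5 and the adult. In that step 3 members were higher by 2 or more, beside 4.41% of the loci, and 2 were lower by 2 or more, beside 9.88%. The loci split into 554 higher and 1242 lower as deposited and into 896 and 769 with median-of-ratios scaling, while 3 members were higher and 2 lower under both. With a limit of 1, 3 were higher and 3 lower, beside 13% and 32.1% of the loci. Cox8b differed by 4.27, Cox7a1 by 3.61 and Cox6a2 by 2.02, while Cox6a1 differed by -2.92, Cox8a by -2.82 and Cox6b2 by -1.25. A larger positive difference than those of Cox8b, Cox7a1 and Cox6a2 was found in 56, 107 and 541 loci. A larger negative difference than those of Cox6a1 and Cox8a was found in 491 and 537 loci. In this step the lower Cox6a1 was thus slightly rarer among the loci than the higher Cox6a2. Cox7a2 differed by -0.33 in the values as deposited, by 0.24 with median-of-ratios scaling and by 0.02 when globin, mitochondrial and short non-coding loci were left out of the total, so its direction in this step was not settled.

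From E10.5 to E13.5 no member differed by 2 or more in either direction, a size reached by 0.851% of the loci upwards and 0.247% downwards. These were 107 higher and 31 lower loci in the deposited scaling, 89 and 48 in the median-of-ratios scaling, and 81 and 73 under a total without globin, mitochondrial and short non-coding loci. With a limit of 1, Cox4i2 (1.45) and Cox6a2 (1.38) were higher and no member was lower, beside 5.89% and 4.85% of the loci. The other 8 members were higher by 0.20 to 0.90, the smallest difference being that of Cox8b, which was -0.07 under that total. Both members of the Cox6a, Cox7a and Cox8 pairs were thus at or above their E10.5 level in the E13.5 library as deposited. Cox6a1 and Cox8a were lower only in the later step. The 3 comparisons share libraries and are not independent of each other.

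Other nuclear-encoded subunits of complex IV were taken from a list of 10 genes without the pairs, which also holds paralogues and testis forms. Of these 10 genes, 8 were at 1 FPKM or more in some library. All 10 were above their E10.5 value in the adult, 2 by 2 or more (5.59% of all loci) and 4 by 1 or more (14.8% of all loci). Cox7b2 and Cox8c, which stayed below 1 FPKM in every library, are among the 10, and their direction carries little weight. The share of all loci above their E10.5 value is not given here. Their median difference was 0.93, against -0.40 over all loci. With median-of-ratios scaling 2 were again higher by 2 or more, as were 989 of the 12569 loci. The median was 1.34, against -0.06 over all loci. By 1 or more, 7 were higher under that scaling. No share of the loci is given here for this limit and scaling, so the 7 cannot be read against the 4 as deposited. Cox6c, a small membrane-spanning subunit, was at 434, 1024 and 1858 FPKM (difference of 2.10), and Ndufa4l2, a paralogue of Ndufa4 that responds to low oxygen, was at 1.14, 7.43 and 11.2 FPKM (2.51). Cox7b was at 205, 311 and 488 FPKM and Ndufa4, long counted as a complex I subunit, at 349.9, 585 and 904 FPKM. Cox7a2l, a relative of the Cox7a pair that takes part in supercomplexes, was at 152, 399 and 259.5 FPKM as deposited. Cox5a was at 151, 172 and 281 FPKM, Cox5b at 23.4, 39.3 and 46.9 FPKM, and Cox7c at 14.7, 16.2 and 16.7 FPKM. Near-identical copies elsewhere in the genome were searched only for the pair members, so reads lost to copies of these genes are not known.

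The testis forms Cox7b2 and Cox8c were near the bottom of the scale. Cox7b2 was at 0.312, 0.278 and 0.416 FPKM, and Cox8c was listed at 0 in the embryonic libraries, with 0.139 FPKM in the adult one. The 10 genes of the list are called unpaired here only because they lie outside the 5 pairs. They include Cox7b beside its testis form Cox7b2, Ndufa4 beside Ndufa4l2, and the testis form Cox8c. Their median was 87.3, 105.5 and 153 FPKM. Relative to it the pair sums lay between 5.03 and 11.8 times at E10.5, between 6.53 and 16.7 times at E13.5, and between 5.77 and 19.0 times in the adult. The Cox7a pair went from 5.67 times at E10.5 to 19.0 times in the adult. The median includes the near-zero Cox7b2 and Cox8c, and without Cox7a2l and Ndufa4 the ratios at E10.5 lay between 23.0 and 54.2 times. The size of these ratios thus depends on the makeup of the list. The 3 subunits of the catalytic core, encoded in the mitochondrial genome, were not analysed here.

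**Figure D4:**
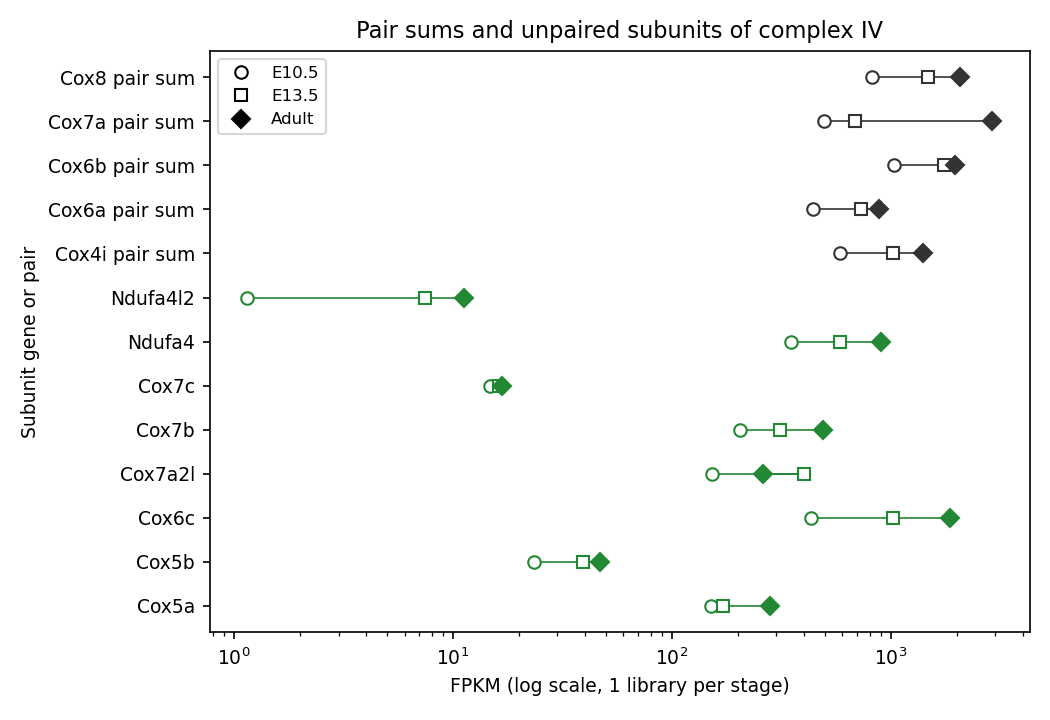
FPKM (log scale, horizontal axis) of the 5 pair sums and of the 8 genes at 1 FPKM or more from the list of other subunits, called unpaired (vertical axis), with an open circle for E10.5, an open square for E13.5 and a filled diamond for the adult, 1 library each. The Cox7a sum moves furthest among the pairs, from 495 to 2915 FPKM, and Cox6c and Ndufa4l2 move furthest among the unpaired subunits.

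Of 27 listed genes that assemble complex IV, all of them expressed, none differed by 2 or more in either direction between E10.5 and the adult, beside the 5.59% and 8.1% of loci given above. The loci of Cox16, Sco2 and Pet117 were joined with Synj2bp, Tymp and Csrp2bp, so their values are not of a single gene. As deposited, 13 of the 27 were above and 14 below their E10.5 value in the adult, with a median difference of -0.00, against -0.40 over all loci. With median-of-ratios scaling, 20 were above and 7 below, with a median of 0.39, against -0.06 over all loci. The highest was Cox20, a chaperone of the core subunit COX2, at 25.2, 43.5 and 58.1 FPKM (difference of 1.17). The lowest was Cox18, which helps to insert COX2 into the membrane, at 19.4, 12.2 and 5.40 FPKM (-1.67). Taco1, a translational activator of the core subunit COX1 named here after its values were seen, was at 17.0, 16.6 and 35.6 FPKM (1.02) and was the only other gene past 1 as deposited. With median-of-ratios scaling Lrpprc, a factor for mitochondrial mRNA stability also named after its values were seen, passed 1 as well (46.9, 53.0 and 80.5 FPKM, a difference of 1.17).

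The tissue label was checked against 6 defining genes of cardiomyocytes, all of them expressed in every library. Their summed level was 14596, 21779 and 24625 FPKM, of which Myl2, the ventricular myosin light chain gene, held 7790, 12217 and 11568 FPKM. Tnni3, the cardiac troponin I gene, was at 533, 1137 and 4059 FPKM, and Actc1, the cardiac actin gene, at 4487, 4646 and 3353 FPKM. The loci of Myl2 and Tnni3 were joined with Ccdc63 and 6030429G01Rik. Ryr2, the calcium release channel of the sarcoplasmic reticulum, was the lowest of the 6, at 73.1, 18.8 and 281 FPKM. The part of cell makeup in the isoform differences was not tested.

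Cell types outside the myocardium that are known to use the restricted isoforms were looked at in the same way. Of 6 brown adipocyte markers, 2 were expressed, and the summed level was 3.88, 3.97 and 33.6 FPKM. Cidea held 28.2 FPKM of the adult sum, while Ucp1, the uncoupling protein that defines brown fat, was listed at 0, 0.0415 and 0.0282 FPKM. Of 8 fast skeletal muscle markers, 5 were expressed, with sums of 332, 243 and 1249 FPKM, of which Ckm, the muscle creatine kinase gene that heart also expresses, held 1142 FPKM in the adult. Of the 8 markers, 6 were lower in the adult than in the E10.5 library, among them Acta1 (266 to 105 FPKM) and Mylpf (29.9 to 1.46 FPKM). The median difference of all expressed mRNA loci was itself -0.40, so a lower adult value was common. With median-of-ratios scaling, where that median was -0.06, 6 were lower as well. The fast myosin heavy chain genes Myh1, Myh2 and Myh4 were below 0.1 FPKM throughout.

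Beside Cox4i2, the summed level of 6 pericyte markers, all of them expressed, was 92.5, 84.4 and 374 FPKM, and that of 5 smooth muscle markers, all of them expressed, was 1325, 1234 and 209 FPKM. Single markers took different courses. Tagln (134, 254 and 41.6 FPKM) and Cnn1 (87.3, 136 and 2.87 FPKM) were highest at E13.5, as Cox4i2 was. The smooth muscle markers Myh11 (0.112, 0.893 and 18.1 FPKM) and Smtn (14.6, 8.25 and 21.9 FPKM) were highest in the adult. So were the pericyte markers Rgs5 (9.81, 47.2 and 239.8 FPKM), Kcnj8 (1.11, 2.51 and 13.7 FPKM), Abcc9 (51.4, 13.8 and 92.5 FPKM), Notch3 (4.16, 3.33 and 5.73 FPKM) and Pdgfrb (8.62, 12.5 and 18.0 FPKM). Rgs5 held most of the pericyte sum in the adult library. The pericyte marker Cspg4 (17.4, 5.03 and 4.34 FPKM) went the other way and was highest at E10.5. Acta2 (1089.5, 836 and 124 FPKM) was highest at E10.5 and held most of the smooth muscle sum in each library. The part of these cell types in the level of Cox4i2 was not tested. Of 4 lung epithelium markers, none was expressed, with sums of 0.169, 0.0883 and 0.269 FPKM and Sftpc listed at 0 in every library. Beside Cox6b2, 5 of 6 spermatid markers were listed at 0 in each library, with sums of 0.0781, 0.0833 and 0.120 FPKM.

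The promoters of the Cox7a and Cox8 pairs are shown because the members of each pair have unlike base composition upstream of their start. RefSeq promoters of GRCm38 were on hand for 7 of the 10 members, Cox6a1, Cox6b1, Cox6b2, Cox7a1, Cox7a2, Cox8a and Cox8b, and not for Cox4i1, Cox4i2 and Cox6a2. The 250 bases before the start are printed in the direction of transcription, at chr7:30183921-30184170 (plus strand), chr9:79759854-79760103, chr19:7217617-7217866 and chr7:140900447-140900696 (minus strand). Capitals mark matches to the E-box motif CANNTG.
Cox7a1: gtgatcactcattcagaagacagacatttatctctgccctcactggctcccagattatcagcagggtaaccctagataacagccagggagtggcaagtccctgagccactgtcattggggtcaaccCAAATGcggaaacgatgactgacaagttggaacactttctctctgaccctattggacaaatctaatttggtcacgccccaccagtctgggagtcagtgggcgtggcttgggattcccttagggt
Cox7a2: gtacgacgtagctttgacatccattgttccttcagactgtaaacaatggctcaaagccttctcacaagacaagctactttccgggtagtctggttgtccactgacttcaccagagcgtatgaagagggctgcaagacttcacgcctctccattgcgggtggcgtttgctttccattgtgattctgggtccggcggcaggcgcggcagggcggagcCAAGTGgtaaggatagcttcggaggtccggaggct
Cox8a: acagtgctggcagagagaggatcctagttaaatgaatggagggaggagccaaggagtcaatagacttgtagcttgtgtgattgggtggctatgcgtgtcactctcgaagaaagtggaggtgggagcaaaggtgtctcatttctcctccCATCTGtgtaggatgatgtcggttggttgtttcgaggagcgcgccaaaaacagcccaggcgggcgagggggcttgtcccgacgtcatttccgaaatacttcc
Cox8b: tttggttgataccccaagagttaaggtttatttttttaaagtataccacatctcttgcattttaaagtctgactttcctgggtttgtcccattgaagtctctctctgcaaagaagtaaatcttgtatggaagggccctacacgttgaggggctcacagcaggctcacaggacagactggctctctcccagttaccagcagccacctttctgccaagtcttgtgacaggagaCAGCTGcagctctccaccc

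The ratio of observed to expected CpG was 0.244 for Cox7a1 and 0.0726 for Cox8b, the isoforms that were high in the adult. It was 0.751 for Cox7a2, 0.676 for Cox8a, 1.06 for Cox6a1, 0.768 for Cox6b1 and 0.43 for Cox6b2. Among 32817 promoters of the same length, 33.9% had a ratio of 0.6 or more, 10.8% were lower than Cox8b and 36% were lower than Cox7a1. All 4 common isoforms with a sequence were thus above 0.6 and the 3 restricted isoforms below it, a description of 7 promoters.

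Motifs were searched on both strands. The E-box CANNTG was found once each in Cox7a1, Cox7a2, Cox8a and Cox8b and at 2 positions in Cox6b1, and 66.2% of all promoters held it. The GABP motif CCGGAAG was found in Cox6a1 and Cox6b1 (6.9% of all promoters), and the NRF1 motif in Cox6a1 (0.777% of all promoters). No match to the ERR motif AAGGTCA (4.08% of all promoters) or to the MEF2 motif (2.92% of all promoters) was found in the 7 windows. A match is a run of letters and does not show binding.

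Of the 10 members, 5 lie on chromosome 7: Cox6a2, Cox6b1, Cox6b2, Cox7a1 and Cox8b. Cox7a1 and Cox6b1, which belong to different pairs, are 430936 bp apart. The Cox6a2 locus overlapped exons of the Itgad and Itgax locus on the other strand by 69 bp, and that locus was at 0.0410, 0.0731 and 1.49 FPKM, far below Cox6a2.

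Copies of member transcripts elsewhere in the genome could take up some of their reads. At 90% identity or more over at least 100 nt, Cox6a1 had 1 copy, Cox6b1 had 2, Cox7a2 had 1, Cox8a had 2 and the other 6 members had none. The Cox6a1 copy lay at chr19:3205782-3206259 with 92.8% identity over 497 aligned bases. It held an unnamed single-exon non-coding locus, which spanned only chr19:3205791-3205957 and was at 65.6, 101.7 and 4.15 FPKM. This locus, like Cox6a1 itself, was highest at E13.5 and lowest in the adult. With its FPKM added to Cox6a1, the share of Cox6a2 was 15.1% and 24.0% in the embryonic libraries and 91.7% in the adult. FPKM is per length and Cox6a1 is 533 nt long, so this sum gives the shorter locus more weight than its fragments would. A Cox8a copy, at chr1:181186905-181187370 with 93.5% identity over 477 aligned bases, overlapped exons of the mRNA locus Wdr26. That locus was at 66.4, 27.8 and 39.8 FPKM. The FPKM of mRNA loci was not added, so the bearing of this copy on the Cox8 shares was not tested.

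The genes whose course over the 3 libraries was closest to a switching isoform were found by the distance between log2(FPKM + 1) values, each centred on its own mean, over 7596 mRNA loci that reached 10 FPKM. With 3 points a small distance is easily met, and it is a description. The added 1 makes loci near 0 FPKM change less on this scale than in FPKM. A locus that is low in the embryo can thus lie close to an isoform whose fold in FPKM is unlike its own. Apobec1, named below, was such a locus, at 0.232, 2.25 and 13.2 FPKM. Nearest to Cox6a2 were the joined Ms4a6b and Ms4a6c locus (distance of 0.0407), Alox5ap (0.0728), Eef1a2 (0.0844), Apobec1 (0.0932) and Aqp1 (0.128). Eef1a2, the translation elongation factor form of adult muscle and neurons, was at 31.5, 77.7 and 341 FPKM. Aqp1, a water channel of endothelium and red cells, went from 7.41 FPKM at E10.5 to 95.5 FPKM in the adult.

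Slfn5 (0.0425), Cd14 (0.0768), Osmr (0.0963), Slc38a3 (0.111) and Itgam (0.138) were nearest to Cox7a1. Cox8b was nearest to the joined Gp49a and Lilrb4 locus (0.0723), Lynx1 (0.0819), Ccl24 (0.11), Gpihbp1 (0.129) and Ccr2 (0.143). Several of these are genes of macrophages and other white blood cells, such as Cd14, Itgam and Ccr2. Their adult levels of 15.8, 18.8 and 24.2 FPKM were far below those of the 3 isoforms. At E10.5 they were at 0.194, 0.176 and 0.264 FPKM, so their folds in FPKM were larger than those of Cox7a1 and Cox8b. Among the members themselves, Cox7a1 and Cox8b were 0.497 apart, Cox6a2 and Cox7a1 1.15, and Cox6a2 and Cox8b 1.59.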

How the data were processed

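Per the labels, total RNA of C57BL/6 heart ventricle was made into libraries with a stranded total RNA kit, and the submitters' processing notes name TopHat, Bowtie, Cufflinks and mm10. The deposited FPKM values are per locus of a merged annotation, which the authors built with Cufflinks from TopHat2 alignments, both guided by UCSC gene models and unguided. Full version numbers, options and strand setting are not given in the sources used here. Cufflinks options that share or leave out reads with several matches would change members with near-identical copies.

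The deposited files used here hold no read counts. From the steps between low values, 1 FPKM over 1 kb stood for about 13.6 fragments in the E10.5 and adult libraries and 25.8 in the E13.5 library, and estimated fragments are approximate. In the E13.5 library this step was 1.32 times as large for loci of 350 to 450 nt as for loci of 800 to 1200 nt. Short loci such as Cox7a1 and Cox8b thus carry a larger length correction there, which bears on their shares. The step was not taken by length in the E10.5 and adult libraries, so its bearing on their change between stages was not tested.

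Shares were FPKM of the restricted isoform divided by the pair sum. Changes were differences of log2(FPKM + 1), a pseudocount of 1, counted at 2 or more over 12569 mRNA loci. With 1 library per stage no test was run. All 10 members are named, every unpaired subunit may be, the highest and lowest of the assembly and marker lists and genes needed beside a member, and the 5 loci nearest to each switching isoform. Members and lists were chosen with earlier results of these data known. Python 3.11.15, numpy 2.4.6, pandas 2.3.3, matplotlib 3.10.9 and BLAST+ blastn 2.17.0 were used, and the counting of changes was tested on simulated data. Alternatives were FPKM times length, an added fragment, median-of-ratios scaling, a total without globin, mitochondrial and short non-coding loci, a pseudocount of 0.1, a limit of 1, no filter, joined loci left out, and another set of unpaired subunits.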

Additional observations from a re-analysis of the deposited data

How the results depend on the processing

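No paired analysis was possible because there is 1 library per stage, and for the same reason none could be left out. An added fragment moved no share beyond the estimated counting error. The copies added FPKM only to Cox6a1, since the mRNA locus Wdr26 at a Cox8a copy was left out. Under FPKM times locus length, which weighs fragments rather than transcripts, Cox6a2 made up 20.5%, 31.8% and 93.6% at the 3 stages, Cox7a1 19.7%, 17.1% and 76.2%, and Cox8b 7.05%, 4.45% and 86.5%, so the restricted isoform was still the smaller in both embryonic libraries and the larger in the adult. With the FPKM of genomic copies added, an alternative chosen after seeing the data, Cox6a2 made up 15.1% at E10.5 and 24.0% at E13.5.

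Of 90 recomputed member differences 43 moved, and the sign changed for Cox7a2 between E13.5 and the adult and for Cox8b between E10.5 and E13.5, as given above. With a limit of 1 in place of 2, 2 members were higher at E13.5 than at E10.5. Against E10.5, 0 members were lower by 2 or more in the adult under median-of-ratios factors, and 2 were lower with a limit of 1.

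Of all mRNA loci, 107 were higher and 31 lower by 2 or more from E10.5 to E13.5. Higher loci numbered 331 with a pseudocount of 0.1 and 740 with a limit of 1. Lower loci numbered 48 with median-of-ratios scaling, 73 with the total without globin, mitochondrial and short non-coding loci, 128 with a pseudocount of 0.1 and 609 with a limit of 1. From E13.5 to the adult 554 were higher and 1242 lower. The higher loci numbered 896 with median-of-ratios scaling, 977 with a pseudocount of 0.1 and 1637 with a limit of 1, and the lower loci 769, 2039 and 4029. From E10.5 to the adult 703 were higher and 1018 lower, which became 1225 and 1696 with a pseudocount of 0.1 and 1856 and 3430 with a limit of 1. The cause was not tested beyond what each setting changes by its construction.

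With Cox7a2l and Ndufa4 left out of the unpaired subunits, the pair sums relative to their median were, from E10.5 to E13.5 to the adult, 30.8, 36.9 and 44.0 times for Cox4i, 23.0, 26.3 and 27.8 for Cox6a, 54.2, 63.4 and 62.0 for Cox6b, 26.0, 24.8 and 91.8 for Cox7a, and 43.2, 53.4 and 65.4 for Cox8. The absolute ratios thus depend on which subunits are averaged. Depth limits chiefly Cox4i2 and Cox6b2, whose 16 to 151 estimated fragments leave their shares imprecise.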
